A study of Mus musculus with 2 samples.

Results

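The 5 beta-like globin genes of the mouse, Hbb-bs, Hbb-bt, Hbb-bh1, Hbb-y and Hbb-bh2, were followed through every table of the series, from whole genes to single exon joins. They were taken by name from a total of 43346 genes in the mm10 gene tables, and the rule that names them uses no measured value. All 5 lie on the minus strand of chromosome 7 within 1 cluster. In mm10, Hbb-bt spans 103812524 to 103813996, Hbb-bs 103826534 to 103828096, Hbb-bh2 103839124 to 103840520, Hbb-bh1 103841637 to 103843164 and Hbb-y 103851749 to 103853216. The pseudogenes Hbb-bh3 and Hbb-bh0 lie between them and were read alongside.

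Hemoglobin is built from alpha-like and beta-like chains, and the beta-like genes are used in turn as red cells change with development. Hbb-y and Hbb-bh1 are the embryonic genes of primitive red cells from the yolk sac. Hbb-bs and Hbb-bt encode the adult beta chain made by definitive red cells, which form in the fetal liver. All depend on a distant locus control region and on erythroid factors such as Klf1 and Gata1, and repressors such as Bcl11a and Sox6 act on the embryonic genes.

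Liver of C57BL/6J embryos was taken at day 14.5 of gestation from littermates whose sexes were pooled, and the polyadenylated RNA above 200 nt was read as stranded pairs of 101 nt. The 2 libraries are labelled as biological replicates of the 1 group, with no treatment and no other genotype, so levels and their spread are given and no conditions are compared. How many embryos went into each library is not stated, and p-values and intervals below compare these 2 libraries and cover counting error only, unless a dispersion is named. Estimated counts on genes came to 102720920 in replicate 1 and 65640933 in replicate 2. Markers of both main cell kinds of the organ were present, with all 7 erythroid genes that were matched (of 8 listed) and all 6 hepatocyte genes at 1 TPM or more in both libraries. Erythroid levels ran from 109.4 to 958.6 TPM and hepatocyte levels from 22.5 to 9617 TPM. In RNA from a whole organ, fewer cells of a type and less RNA per cell cannot be told apart.

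The members share 1 layout. In GENCODE M21, on GRCm38, each main transcript has a coding sequence of 444 bases, cut by the introns into 92, 223 and 129 bases. Hbb-bs and Hbb-bt differ at 1 of the 444 coding bases, and that base is in exon 3. The longest run that the 2 transcripts share is 399 bases, and 62.5% of the 528 windows of 101 bases in Hbb-bs-201 occur unchanged in Hbb-bt-201. For Hbb-bh1, Hbb-y and Hbb-bh2 the coding identity with Hbb-bs was 74.1%, 74.3% and 70.3%, and none of their windows of 101 bases occurs in Hbb-bs. The 2 embryonic genes were 76.4% identical to each other.

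The coding bases at the exon joins are shown because the junction reads below rest on them. Each line holds the last 30 bases of exon 1 and the first 30 of exon 2, 5′ to 3′, with capitals where a gene differs from Hbb-bs.
Hbb-bs: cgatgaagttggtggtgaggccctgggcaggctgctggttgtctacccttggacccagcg
Hbb-bt: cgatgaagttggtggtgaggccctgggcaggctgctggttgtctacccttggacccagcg
Hbb-bh1: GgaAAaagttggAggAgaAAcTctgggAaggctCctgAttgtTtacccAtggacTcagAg
Hbb-y: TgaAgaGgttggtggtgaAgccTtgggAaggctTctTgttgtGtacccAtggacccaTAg
Hbb-bh2: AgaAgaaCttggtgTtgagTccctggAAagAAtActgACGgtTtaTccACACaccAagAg

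Here the 2 adult genes are letter for letter the same. Before the join, Hbb-bh1, Hbb-y and Hbb-bh2 differ from Hbb-bs at 9, 6 and 7 of 30 bases. The next lines give, in the same way, the last 30 bases of exon 2 and the first 30 of exon 3.
Hbb-bs: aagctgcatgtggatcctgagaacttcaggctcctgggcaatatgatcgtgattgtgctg
Hbb-bt: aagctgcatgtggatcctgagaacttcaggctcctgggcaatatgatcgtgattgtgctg
Hbb-bh1: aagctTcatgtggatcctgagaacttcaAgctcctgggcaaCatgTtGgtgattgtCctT
Hbb-y: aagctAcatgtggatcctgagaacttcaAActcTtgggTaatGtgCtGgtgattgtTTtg
Hbb-bh2: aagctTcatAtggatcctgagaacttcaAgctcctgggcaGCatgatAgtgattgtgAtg

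The end of exon 2 is more alike than the end of exon 1, with 2, 3 and 3 differences from Hbb-bs in Hbb-bh1, Hbb-y and Hbb-bh2. The longest run that the whole Hbb-bh1 or Hbb-y transcript shares with Hbb-bs is 22 bases.

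Upstream sequence is shown for the 4 members that RefSeq promoters (GRCm38.p6) matched, since the genes differ so much in level. Each line gives the 120 bases before the RefSeq gene start, 5′ to 3′ on the gene's strand, with matches on either strand in capitals. RefSeq starts differ from the outer ends of the GENCODE spans given above, so the Hbb-bs window lies inside its GENCODE span, and those of Hbb-bt and Hbb-y overlap theirs. The letters searched were CACCC, then CCAAT, then GATAA, and last ATAA.
Hbb-bs, chr7:103827929-103828048: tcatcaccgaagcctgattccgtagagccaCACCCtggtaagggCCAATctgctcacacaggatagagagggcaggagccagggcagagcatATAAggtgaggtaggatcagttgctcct
Hbb-bt, chr7:103813924-103814043: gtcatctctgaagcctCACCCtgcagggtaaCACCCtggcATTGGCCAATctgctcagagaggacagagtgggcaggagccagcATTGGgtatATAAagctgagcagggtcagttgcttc
Hbb-y, chr7:103853208-103853327: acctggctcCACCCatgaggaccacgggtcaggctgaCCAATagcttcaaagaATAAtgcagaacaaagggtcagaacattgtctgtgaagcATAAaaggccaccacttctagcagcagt
Hbb-bh2, chr7:103840522-103840641: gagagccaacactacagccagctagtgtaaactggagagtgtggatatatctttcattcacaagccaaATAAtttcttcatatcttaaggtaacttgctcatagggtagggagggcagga

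CACCC and CCAAT are the letters of the classical beta globin boxes, the first of them bound by Klf1. Hbb-bs, Hbb-bt and Hbb-y held both in this order, followed by ATAA that starts 28, 27 and 28 bases before the RefSeq start. GATAA contains ATAA and was in none of the 4 windows. The Hbb-bh2 window held ATAA, 52 bases before the RefSeq start, and no other of these letters. Among 32851 mouse promoter windows of the same length 31.7% held CACCC, 21.3% CCAAT, 10.5% GATAA and 38.1% ATAA on either strand. A match describes letters and is no measured binding site.

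On TPM, the authors' abundance unit scaled for length and library size, the 5 genes held 23.0% of the gene total in replicate 1 and 19.5% in replicate 2. Hbb-bs, an adult beta chain gene, stood at 143676 TPM in replicate 1 and 126183 TPM in replicate 2. Hbb-bt, its near-identical neighbour, stood at 79457 and 64978 TPM. They ranked the second and the third of all genes by mean TPM. Within the family Hbb-bs made up 64.3% and 65.9% of TPM and Hbb-bt 35.5% and 33.9%.

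The embryonic genes were detected at levels lower by more than 2 orders of magnitude. Hbb-y, which encodes the embryonic epsilon-type chain, stood at 327.7 and 363.4 TPM. Hbb-bh1, which encodes the other embryonic chain, stood at 140.2 and 93.7 TPM. Together they made up 0.209% of family TPM in replicate 1 and 0.239% in replicate 2. Both were nonetheless among the more abundant transcripts of the organ, at rank 196 for Hbb-y and 543 for Hbb-bh1 of 43346 genes.

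Hbb-bh2, an annotated coding gene of the cluster, stood at 0.17 TPM on 5 counts in replicate 1 and 0.07 TPM on 1 count in replicate 2. The pseudogenes Hbb-bh3 and Hbb-bh0 had 0 counts in both libraries, which allows up to 0.0292 and 0.0457 CPM (counts scaled to library size), counting error only. For Hbb-bh0 the deposited effective length is 0, so no read could have been assigned. For Hbb-bh3 it is 88.11 and 26.3 nt, and the deposited TPM range reached 0.267 in replicate 1 and 1.15 in replicate 2. Those upper ends lie above the TPM of Hbb-bh2, so the 0 counts do not place Hbb-bh3 below it. The order Hbb-bs, Hbb-bt, Hbb-y, Hbb-bh1, Hbb-bh2 held in both libraries, and no neighbours in it had overlapping values.

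**Figure D1:**
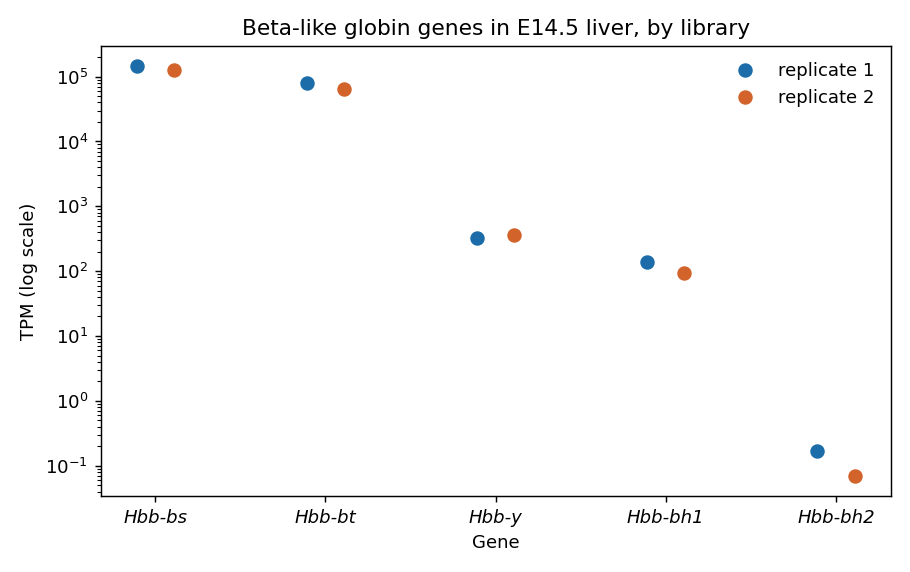
Level of each beta-like globin gene in TPM (log scale) in the 2 liver libraries, 1 point per library. Hbb-bs and Hbb-bt sit near 10 to the power of 5, Hbb-y and Hbb-bh1 between 93.7 and 363.4 TPM, and Hbb-bh2 below 0.2 TPM.

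On TPM the ratio within the adult pair differed less between the libraries than that within the embryonic pair. Hbb-bs exceeded Hbb-bt by 1.81-fold in replicate 1 and 1.94-fold in replicate 2, a log2 ratio of 0.91 ± 0.07 (SD, n = 2). Hbb-y exceeded Hbb-bh1 by 2.34-fold and 3.88-fold, or 1.59 ± 0.52 on the log2 scale (SD, n = 2). Hbb-bt, the lower adult gene, exceeded Hbb-y, the higher embryonic gene, by 242-fold and 179-fold. These ratios are given as a description, with no test.

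The split of the adult pair is the authors' estimate for near-identical copies and is given as uncertain. The deposited posterior SD of the count was the same for both genes in each library, 1379 counts in replicate 1 and 849.6 in replicate 2. That is 0.0138% and 0.0144% of the Hbb-bs count and 0.0281% and 0.0330% of the Hbb-bt count. For Hbb-y and Hbb-bh1 it was 0. The deposited TPM of Hbb-bs in replicate 1, 143676, lies above its own deposited credibility range of 142721 to 142946. The same holds for Hbb-bt there, with 79457 TPM and a range of 78906 to 79075, and for both genes in replicate 2. On expected counts, which are not scaled for length, the log2 ratio of Hbb-bs to Hbb-bt was 1.02 in replicate 1 and 1.20 in replicate 2.

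Next, the 2 libraries were set against each other. Hbb-bh1 went from 7094 counts in replicate 1 to 2894 in replicate 2. With library size taken into account this is a log2 difference of -0.64 (95% exact interval -0.71 to -0.58, adjusted p = 4.93e-95, exact binomial test). Hbb-y had 18528 and 12907 counts and, scaled to library size, was higher in replicate 2 by 0.13 on the log2 scale (interval 0.09 to 0.16, adjusted p = 9.02e-14, exact binomial test). With TMM library sizes the 2 values thus have opposite signs. Neither passed once a dispersion between libraries was allowed for (edgeR exact test, adjusted p = 1 for both). That dispersion was estimated from the same 2 libraries taken as 1 group, so differences between them entered it as noise. With spike-in library sizes, which moved the median of all genes to 0.65, Hbb-bh1 stood at 0.01 and Hbb-y at 0.78.

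Hbb-bs drew 9976881 expected counts in replicate 1 and 5909412 in the other library, a log2 difference of -0.11. Hbb-bt had 4913731 and 2577753, a log2 difference of -0.28. With spike-in library sizes both were positive, at 0.55 and 0.37, and below the median of all genes. Each of the 4 tested members passed an adjusted p of 0.05 at any fold, as did 60.2% of all 17906 tested genes, 29.9% higher and 30.3% lower in replicate 2. None of the 4 reached the 2-fold call, which 8.02% of tested genes reached. Hbb-bh2, with 6 counts in all, was not tested, and its exact interval ran from -7.24 to 1.49. Once the same dispersion, estimated over all tested genes, entered the edgeR exact test, the adjusted p was 1 for each of the 4.

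Transcript use was divided only in Hbb-bs, since the other members have 1 transcript each in the mm10 table. The coding transcript Hbb-bs-201 took 93.57% of the gene's abundance in replicate 1 and 98.91% in replicate 2. Hbb-bs-202, annotated as a retained intron, took 6.37% and 1.05%, which is 9158 and 1322 TPM. In both libraries this estimate alone exceeded Hbb-y and Hbb-bh1 together. Hbb-bs-203, a short coding model, took 0.06% and 0.04%. In the mm9 transcript table the same Hbb-bs-202 stood at 0.820 RPKM in the first replicate column and 0 in the second, or 0.00711% and 0% of the gene.

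**Figure D2:**
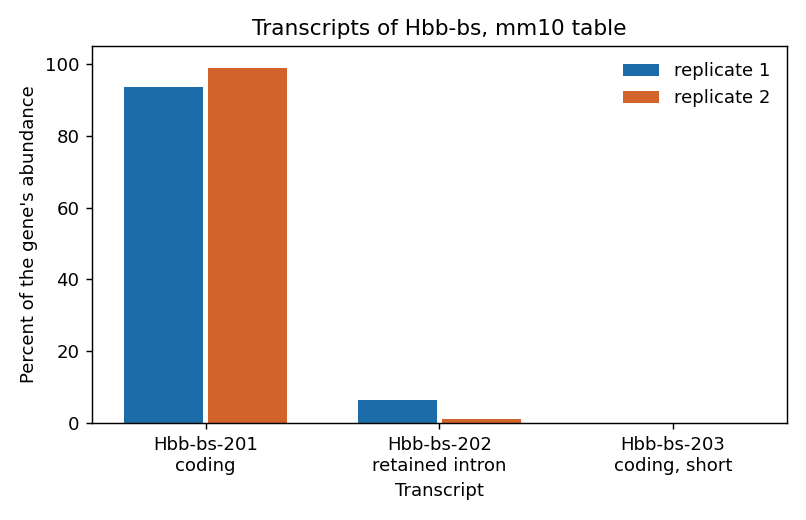
Percent of Hbb-bs abundance assigned to each of its 3 transcripts in the mm10 table, 1 bar per library, on an axis that starts at 0. The retained intron transcript Hbb-bs-202 takes 6.37% in replicate 1 and 1.05% in replicate 2, and Hbb-bs-203 is too low to see.

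The mm9 tables hold a second quantification of the experiment, in RPKM, with a pair of replicate columns that are not tied to the libraries by any label. In the first column Hbb-bs stood at 11534 RPKM and in the second at 125.3 RPKM. Hbb-bt stood at 8024 and 289.6 RPKM. Both adult genes were thus far lower in the second column, by 92.0-fold and 27.7-fold.

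The embryonic genes did not share that gap. Hbb-y stood at 59.4 RPKM in the first column and 64.8 in the second, and Hbb-bh1 at 21.5 and 14.5 RPKM. Hbb-bh2 stood at 0.0236 and 0.00742 RPKM. Exons gave nothing further, because every exon of a transcript carried its transcript's value, 11532 and 125.3 RPKM in each of the 3 exons of the main Hbb-bs transcript.

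Of the 4 members with at least 1 RPKM, 2 were at least 10-fold lower in the second column, against 0.134% of the 9718 genes at that level. None was 10-fold higher, where 0.0515% of genes were. The median log2 difference over 9710 genes with a value in both columns was -0.44, with 95% of genes between -1.53 and 0.57, and Hbb-bs stood at -6.52 and Hbb-bt at -4.79. Among the 148 genes that reached 100 RPKM in either column and had a value in both, these were the only 2 past 10-fold. That level was chosen after the values were seen, and genes at 0 in 1 column were left out. The next lowest of them was the alpha globin gene Hba-a2 at -2.80, with 12017 and 1721 RPKM. The mm10 libraries, with Hbb-bs at 143676 and 126183 TPM, held no such gap.

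**Figure D3:**
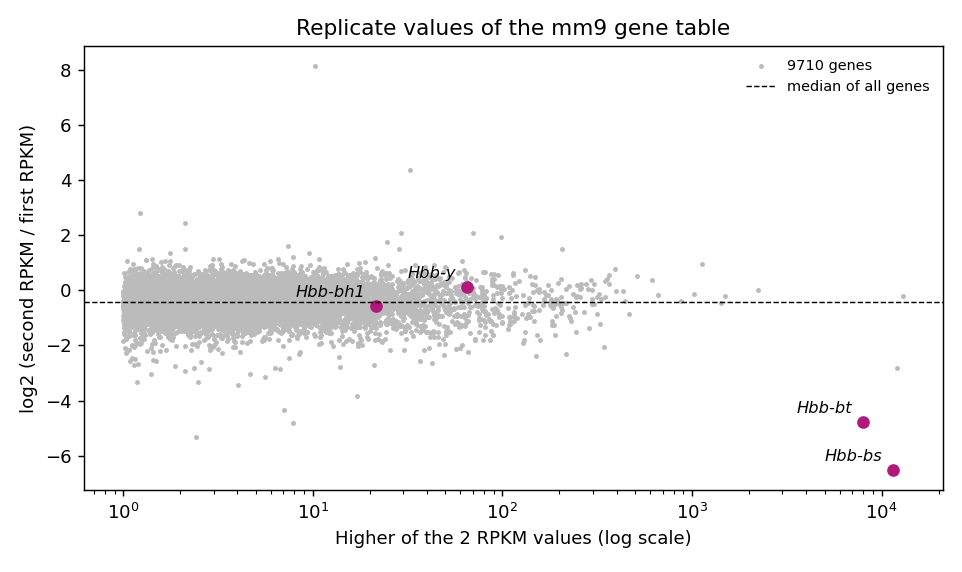
Log2 ratio of the second to the first RPKM column of the mm9 gene table against the higher of the 2 values (log scale), 1 point per gene for 9710 genes with at least 1 RPKM in either column and a value in both. Hbb-bs at -6.52 and Hbb-bt at -4.79 lie far under the dashed median of -0.44, while Hbb-y and Hbb-bh1 lie near it.

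Because of that gap the family ratios of the mm9 table depended on the column. Adult-type exceeded embryonic transcripts 242-fold in the first column and 5.23-fold in the second. Hbb-bs exceeded Hbb-bt in the first column by 0.52 on the log2 scale, and stood below it in the second, at -1.21. Hbb-y exceeded Hbb-bh1 in both, by 1.47 and 2.16.

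The junction table of the same assembly counts reads that join exons, again for a first and a second replicate. For Hbb-bs, exon 2 was joined to exon 3 (intron 110975308 to 110975961) by 4453077 reads in the first replicate and 3164849 in the second. Its exons 1 and 2 (intron 110976185 to 110976297) were joined by 2210297 and 1381499 reads. Scaled to all junction reads of each replicate, both introns together came to 76093 and 67943 RPM (reads scaled to the junction total). The gap between replicates was thus 1.12-fold in junction reads, against 92.0-fold in the gene table. No label ties the replicate order here to the column order of the gene table.

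The picture for Hbb-bt was alike. Its exons 2 and 3 (intron 110961299 to 110961952) were joined by 3536704 and 3125962 reads, and its exons 1 and 2 (intron 110962176 to 110962291) by 2683396 and 1273005. Both introns together came to 71031 and 65741 RPM, a 1.08-fold gap. The adult pair was nearly even here, at a log2 ratio of 0.08 for Hbb-bs over Hbb-bt. Reads that joined the 2 genes were left out of this ratio. The 30 bases on each side of both joins are identical in the 2 genes, so those bases cannot place a read in 1 copy.

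For Hbb-y the reads were 8079 and 4009 over intron 2 (111000517 to 111001261), and 2912 and 1507 over intron 1 (111001485 to 111001574). Hbb-bh1 had 2019 and 730 reads over intron 2 (110990395 to 110991204), and 1279 and 405 over intron 1 (110991428 to 110991532). Hbb-bh2 had 3 and 2 reads over intron 2, and 10 and 0 over intron 1. Both embryonic genes were lower in the second replicate after scaling to the junction total, Hbb-y by 1.52-fold and Hbb-bh1 by 2.22-fold. In the second column of the gene table Hbb-bh1 was lower too, with 21.5 and 14.5 RPKM. Hbb-y was slightly higher there, with 59.4 and 64.8 RPKM. The order of the 5 genes by junction reads was the same as by TPM.

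**Figure D4:**
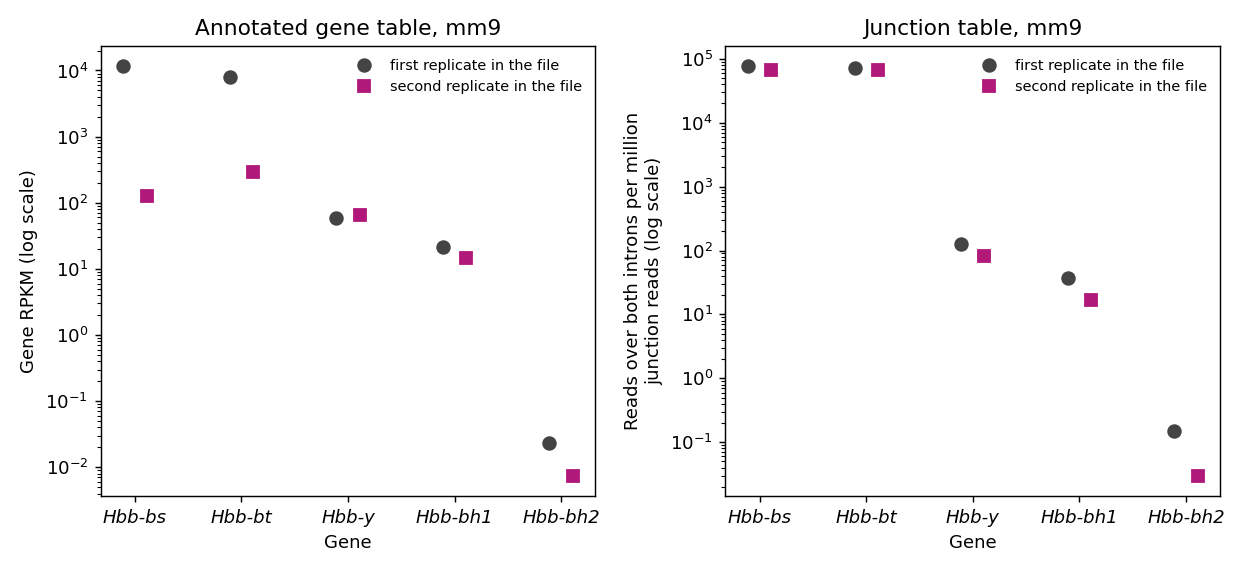
Left, RPKM of each gene in the mm9 gene table, and right, reads over both annotated introns in RPM of all junction reads, for the first (circles) and second (squares) replicate of each file, both on log scales. The adult genes part by 92.0-fold and 27.7-fold on the left, and by 1.12-fold and 1.08-fold on the right, where Hbb-y and Hbb-bh1 part by 1.52-fold and 2.22-fold.

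The second intron had more reads than the first in 9 of 10 pairs of values. On the log2 scale intron 1 over intron 2 was -1.10 ± 0.13 for Hbb-bs, -0.85 ± 0.63 for Hbb-bt, -0.75 ± 0.13 for Hbb-bh1 and -1.44 ± 0.04 for Hbb-y (SD, n = 2, 0.5 reads added). Hbb-bt had the widest spread of these 4, at -0.40 in the first replicate and -1.30 in the second. Hbb-bh2 was the exception, with 10 reads over intron 1 and 3 over intron 2 in the first replicate, and its mean of -0.37 ± 2.76 shows no order. Intron 1 is the short one in all 5 genes, from 85 to 116 nt against 654 to 810 nt.

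Many reads joined exons of different genes. Exon 2 of Hbb-bs was joined to exon 3 of Hbb-bt, a span of 14663 nt, by 3526487 reads in the first replicate and 2830498 in the second. Exon 1 of Hbb-bs was joined to exon 2 of Hbb-bt by 2202766 and 1227738 reads. Neither join is annotated. Of the reads that left exon 2 of Hbb-bs for an exon 3, 54.5% went to its own, and of those that left exon 1 51.1% went to its own second exon. The sequences printed above are identical in the 2 genes on both sides of both joins, so the 60 bases shown cannot place such a read in 1 copy.

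Some reads placed at exon ends of Hbb-bh1, Hbb-y and Hbb-bh2 were also joined to adult exons, by amounts that differed between the joins. The gene that these reads came from was not tested. Of the reads leaving exon 2 of Hbb-bh1, 41.9% went to its own exon 3, while 2039 went to exon 3 of Hbb-bs and 1767 to that of Hbb-bt. All 1684 reads that left its exon 1 for a second exon went to its own. Hbb-y kept 96.4% at exon 2 and 99.6% at exon 1. For Hbb-bh2 5 of 298 reads leaving exon 2 stayed in the gene, which is 1.68%. As printed above, the end of exon 2 differs from Hbb-bs at 2 bases in Hbb-bh1 and 3 in Hbb-y and Hbb-bh2. The part of this likeness in the counts was not tested.

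Reads were also placed at the pseudogene Hbb-bh3, which had 0 counts in both mm10 libraries. There 51349 and 19643 reads joined its second annotated exon to exon 3 of Hbb-bs. Another 24229 and 9690 joined it to exon 3 of Hbb-bt. Whether these reads came from Hbb-bh3 RNA was not tested. The file lists no join within Hbb-bh3 itself. In every join between genes the first exon lay upstream on the minus strand, and the file's format can hold no other order.

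**Figure D5:**
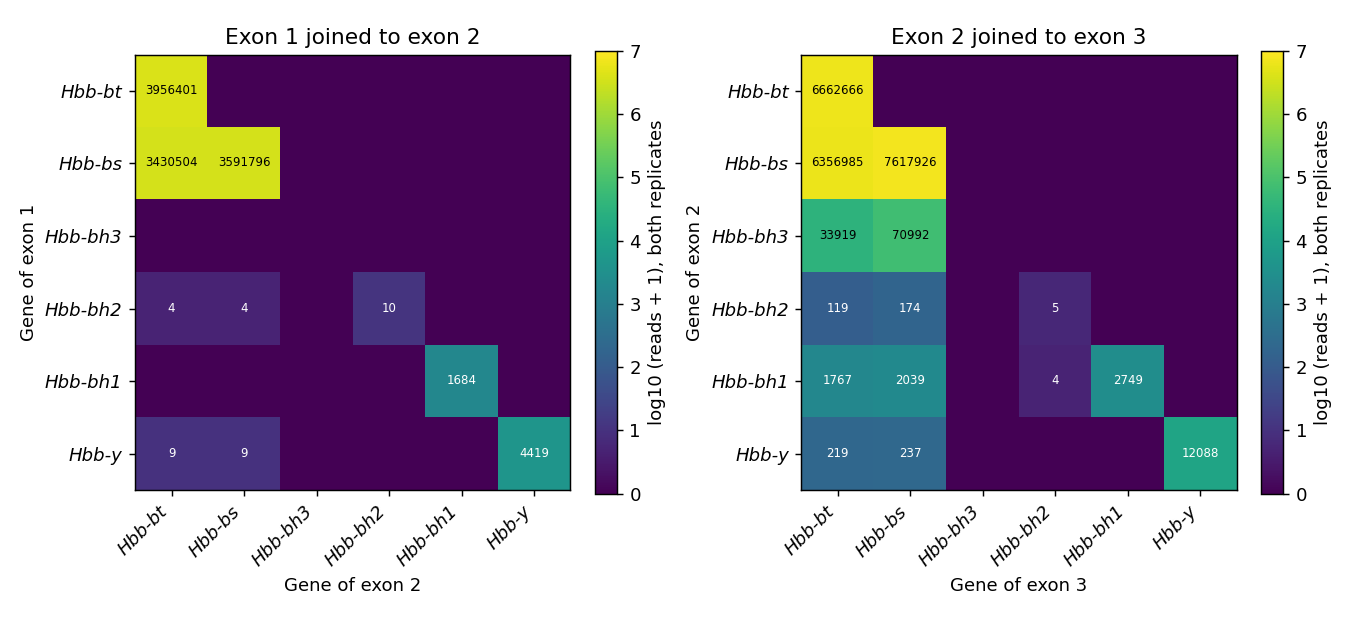
Reads of both replicates that joined exon 1 to exon 2 (left) and exon 2 to exon 3 (right), with the gene of the first exon in rows and of the second in columns, coloured by log10 of reads plus 1. The joins from Hbb-bs to Hbb-bt, with 3430504 and 6356985 reads, are close to the joins within the 2 genes, and exon 2 of Hbb-bh3 joins only to adult exons.

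In total 9823 deposited junctions had an end in a member, 1.07% of the 914099 in the file, and they carried 20.7% of its reads. Only 11 of them are annotated introns, which held 68.2% of these reads, against 85.2% of reads in the rest of the file. A further 16 between annotated exon ends of 2 genes held 30.9%. The remaining 9796 held 0.849% of the reads. They include 153 that run between Hbb-bs and Hbb-bt over 14006, 14009, 14010 or 14082 nt, the distances between their annotated exon ends. These 153 had 17374 reads, and 4870 other joins between genes had 102334 reads. Joins of exon 1 straight to exon 3, which skip exon 2, had 240 and 44 reads in Hbb-bs, 202 and 38 in Hbb-bt, and 1 and 0 in Hbb-bh1.

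A donor inside exon 1 stood out among joins with 1 annotated end, and was picked after its reads were seen. It lies 38 bases before the end of exon 1 in both adult genes. From there 3430 and 4211 reads ran to exon 2 within Hbb-bs, 3041 and 3057 within Hbb-bt, and 3426 and 3930 from Hbb-bs to Hbb-bt. That is 0.155% and 0.305% of the reads of the annotated end in Hbb-bs, and 0.113% and 0.240% in Hbb-bt, higher in the second replicate in both. The last 45 bases of exon 1 in the GRCm38 transcripts, whose intron 1 has the length it has in mm9, follow with the 2 bases after this place in capitals.
Hbb-bs: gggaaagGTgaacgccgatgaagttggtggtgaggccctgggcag
Hbb-bt: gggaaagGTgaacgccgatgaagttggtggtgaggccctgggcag
Hbb-y: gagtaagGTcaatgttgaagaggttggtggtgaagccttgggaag
Hbb-bh1: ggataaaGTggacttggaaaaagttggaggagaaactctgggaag

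All 4 have GT there, the usual first letters of an intron. At this place Hbb-y had 1 read against 4419 at the annotated end, and Hbb-bh1 had 0 against 1684. Over both replicates the inner place took 0.212% of the reads of both ends in Hbb-bs (95% exact Clopper-Pearson interval 0.208% to 0.217%). In Hbb-y it took 0.0226% (interval 0.000573% to 0.126%), and in Hbb-bh1, with 0 of 1684 reads, the interval reached 0.219% and so held the Hbb-bs value. These limits cover counting error only, reads are not independent molecules, and the difference was not tested.

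Contigs, the stretches of continuous coverage that the authors called on mm9, covered all members on the gene strand. The contig over Hbb-bs (110973314 to 110976930) had a signal of 9740 and that over Hbb-bt (110957148 to 110963440) a signal of 3330. Hbb-y was covered by a pair of contigs with signals of 79.9 and 130, Hbb-bh1 by 1 with 34, and Hbb-bh2 by 1 with 0.21. The Hbb-bt contig ran on for 3890 nt past the annotated 3′ end of the gene and the Hbb-bs contig for 1734 nt, against 539 nt for Hbb-bh2, 91 nt for Hbb-y and none for Hbb-bh1. Hbb-bh3 and Hbb-bh0, at 0 in the mm10 tables, lay in contigs with signals of 0.715 and 0.802. None of the 64887 de novo gene models on mm9 overlapped a member.

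The alpha-like partners were of like order. Adult-type beta globin summed to 223133 TPM in replicate 1 and 191161 in replicate 2, against 261352 and 383236 TPM for Hba-a1 and Hba-a2. The ratio of beta to alpha was therefore 0.854 and 0.499 on TPM. On expected counts it was 1.31 and 0.854, so in replicate 1 the larger sum depended on the scale. TPM divides by an effective length, which is shorter where fragments are longer. The deposited lengths imply a mean fragment of 214 nt in replicate 1 and 303 nt in replicate 2. The part of this difference in the TPM values of such short genes was not tested. The embryonic alpha gene Hba-x stood at 30.7 and 38.4 TPM.

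Known regulators of the beta cluster were all expressed. Each of the 30 listed genes was at 1 TPM or more in both libraries. Their median was 19.985 TPM and their range 1.25 to 223.5 TPM. The 4 highest were erythroid activators or their cofactors. Klf1, which binds the CACCC box, stood at 199.8 and 247.2 TPM, Nfe2 at 169.4 and 215.7, Ldb1 at 123.8 and 130.3, and Lmo2 at 145.9 and 107.3.

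Bcl11a, a repressor of the embryonic genes, stood at 12.6 TPM in replicate 1 and 10.9 in replicate 2, and Sox6, which acts with it, at 8.08 and 6.37 TPM. Lin28b, a fetal RNA-binding protein that restrains let-7, stood at 5.12 and 3.77 TPM. None of the 30 reached the 2-fold call between the libraries, where 8.02% of all tested genes did. At any fold 14 were higher and 8 lower in replicate 2 at an adjusted p under 0.05 by the exact binomial test, where 29.9% and 30.3% of all tested genes were, and their median log2 difference was 0.05 against 0.00 over all tested genes.

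Genes flanking the cluster were low. Within 100 kb of the members the annotation lists 18 further genes, of which 16 were matched in the mm10 table, 12 of them olfactory receptors. Of these 12, 11 stayed under 1 TPM in both libraries and 3 had 0 counts in both. Olfr632 was highest, at 1.85 and 2.19 TPM, on 173 and 141 counts.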

How the data were processed

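The rule for the members uses no measured value, but the members and gene lists were chosen with earlier results of these data known. The expected counts, TPM, FPKM and isoform percent are the authors' values on mm10, per the file headers. Annotation M4 and alignment to the transcriptome are named in a deposited note, and the aligner is not given in the sources used here. The mm9 tables hold deposited RPKM as scores of annotated and de novo models. The deposited junction file holds read counts, and contigs a coverage signal, both with an irreproducible discovery rate (IDR), which comes from the authors and is read like a q-value. Spike-in rows (2.84% and 1.82% of counts) and phiX (0.0764% and 0.0857%) stayed out.

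Libraries were compared by a two-sided exact binomial test on rounded counts with TMM sizes (edgeR 4.0.16, R 4.3.3), with p-values adjusted after Benjamini-Hochberg for all genes that had 10 counts or more, and calls at adjusted p under 0.05 and 2-fold. With 1 group no quasi-likelihood test applies. Fold changes add 0.5 counts. The test was checked on simulated counts that held counting noise only, so the check does not cover other spread between libraries. DESeq2 1.42.0 gave size factors. Python 3.11.15 did the rest. Named genes are the members, their transcripts, exons and introns, the listed partners and regulators, and neighbours within 100 kb. Ahsp, on 2 lists, was not matched.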

Additional observations from a re-analysis of the deposited data

How the results depend on the processing

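The number of members called between the libraries was 0 under every library size, count minimum and spread tried. With spike-in library sizes the log2 differences of Hbb-bs, Hbb-bt and Hbb-bh1 changed sign, to 0.55, 0.37 and 0.0078, and 3795 genes were called in all, against 1436 in the report and 244 with the edgeR exact test. The log2 ratio of adult-type to embryonic genes, 8.80 on TPM, was 9.13 on expected counts, 6.96 on the mean mm9 RPKM, 7.92 and 2.39 on its first and second column, and 10.03 on junction reads. Hbb-bs over Hbb-bt, 0.91 on TPM, was 1.11 on expected counts, 0.49 on mean mm9 gene, transcript and exon RPKM, 0.52 and -1.21 on the columns, and 0.078 on junction reads. Hbb-y over Hbb-bh1 was 2.16 on the second column. The family's share was 21.2% of gene TPM and 13.7% of expected counts. Hbb-bs-203 was 0.00172% of the gene on mm9. Junctions numbered 1712 at an IDR of at most 0.1, 886 at 0.01, 5233 with 2 reads and 1421 with 10. Single libraries gave 8.71 to 8.90, 0.85 to 0.96 and 1.23 to 1.95 for the 3 ratios and 19.5% to 23.0% for the share. The single mm9 columns and the mm9 isoform shares were added after the data were seen. No paired analysis was possible because there is 1 group.

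Depth limits Hbb-bh2, with 6 counts, and not the other 4 members. In GENCODE M21 the adult copies differ at 1 coding base and share 62.5% of the Hbb-bs windows of 101 bases. Their split is the authors' estimate, made with an Hbb-bs-201 of 778 nt against 628 nt in M21. Single windows also do not describe read pairs.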
